A study of Saccharomyces cerevisiae W303 with 9 samples.

Results

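The comparison described here asks what a raised level of ZPR1 changes across all genes of budding yeast cells that lack AIM29. The ZPR1 strain carries an aim29 deletion together with pmTDH3-ZPR1, the deletion strain carries the aim29 deletion without that construct, and wild type carries neither; all are Saccharomyces cerevisiae of the laboratory strain W303. Each strain was measured in 3 isolates grown in YPD, a rich glucose medium, to mid-log phase at an optical density of 0.4 to 0.6, and poly(A) RNA was sequenced. The members are 6 of the 9 libraries in the series, 3 of the ZPR1 strain and 3 of the deletion strain, taken by their labels. The 3 wild-type libraries enter the estimate of the spread. Their values are given for only a part of the genes and lists, and the other genes need not follow the same pattern in wild type. Both compared strains lack AIM29, so the libraries hold no measurement of raised ZPR1 in cells that have it. The labels do not spell out the letters pm, where the construct sits, or whether the isolates came from separate transformations, so the p-values measure the spread between these isolates.

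Zpr1 is a conserved zinc-finger protein that binds newly made eEF1A, the elongation factor that brings aminoacyl-tRNA to the ribosome, and helps it to fold; Aim29 is a small protein of the same folding route. The promoter of TDH3, a glycolytic gene, is a strong one that is widely used to raise expression in yeast. A pair of transcription programs recur below. Hsf1 drives chaperone genes and becomes more active when unfolded proteins accumulate, and Gcn4 drives the genes of amino acid synthesis when its mRNA is translated more, as happens when amino acids run short or initiation is impaired.

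Read depth was similar in the 9 libraries, but their spread was not. Totals over all features ran from 14380639 to 20140071 reads, with the ZPR1 libraries at 18044486 or more. At these depths 3 reads correspond to 0.143 to 0.213 CPM (a gene's count scaled to the library total, after a composition factor), which is a floor for counting error only. The biological coefficient of variation, edgeR's estimate of the spread between isolates beyond counting error, was 14.8% in the ZPR1 strain, 3.76% in the deletion strain and 5.22% in wild type. Replicate 3 of the ZPR1 strain stood apart. Among the 5053 genes that averaged 10 CPM or more, it had 51 genes at 2-fold or more above the mean of the other ZPR1 libraries and 12 at 2-fold or more below it, against 5 and 11 genes for replicate 1 and 7 and 21 for replicate 2. The deletion libraries had none. Without replicate 3 the coefficient of the ZPR1 strain was 10.1%, still the highest of the 3 strains, so values are given for each library, and many of the results below also have their value without replicate 3.

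ZPR1 (YGR211W, chromosome VII, bases 915241 to 916701, plus strand, build R64) checks the labels. Its level was 5645, 4856 and 5639 CPM in the ZPR1 libraries, against 445, 399.5 and 421 CPM in the deletion libraries and 329, 322 and 337 CPM in wild type. It was 12.8-fold higher in the ZPR1 strain than in the deletion strain, a log2 change of 3.67 ± 0.08 (SE; edgeR quasi-likelihood test, adjusted p = 5.7e-10), and replicate 3 did not differ from the others in it. AIM29 itself had 132, 148 and 96 reads in the ZPR1 libraries, against 11, 55 and 52 reads in the deletion libraries and 1326, 1302 and 1249 reads in wild type. The remaining AIM29 reads were thus a small part of the wild-type level in both compared strains, and the difference between these strains, 1.24 ± 0.34 on the log2 scale, did not pass the test (edgeR, adjusted p = 0.065). Without replicate 3 of the ZPR1 strain it was 1.38 and passed (adjusted p = 0.012). YGR210C, which lies 502 bases from ZPR1 on the other strand and is transcribed away from it, had 163, 223 and 166 CPM in the ZPR1 libraries, against 259, 243 and 251 CPM in the deletion libraries. It fell by a log2 change of −0.45 ± 0.10 (edgeR, adjusted p = 0.030), replicate 2 was the closest to the deletion libraries, and the fit to the 6 compared libraries alone did not call it (adjusted p = 0.10). None of 5 further neighbours, SER2, TRX2, SLI1, RTA1 and RPS0A, passed with all libraries; without replicate 3 SER2 did (log2 change 0.25, edgeR adjusted p = 0.0079).

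The client of Zpr1 and the factors it works with were not called. TEF1 and TEF2 encode the same eEF1A protein from near-identical genes, in which only 8% of 50-base stretches are unique, so the division of reads between them is uncertain. TEF1 had 5451, 5306 and 5453 CPM in the ZPR1 libraries, against 5042, 4868 and 4906 CPM in the deletion libraries. Its difference of 0.13 ± 0.05 did not pass (edgeR, adjusted p = 0.17), nor did that of TEF2, −0.04 ± 0.06, and TDH3, whose promoter the construct is named for, differed by −0.09 ± 0.06. Among 10 genes listed as factors that handle eEF1A, ZPR1 was the only one called with all libraries, and ZPR1 and AIM29 were called without replicate 3. HSF1 and GCN4 did not pass as mRNAs: HSF1 had 60.4, 60.1 and 61.6 CPM in the ZPR1 libraries, against 59.4, 63.2 and 64.7 CPM in the deletion libraries, and GCN4 had 958, 969 and 1179.8 CPM in the ZPR1 strain, against 1029.7, 1091 and 1047 CPM in the deletion strain. Gcn4 output is set mainly by translation of its mRNA, which these libraries do not measure.

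Of 5970 genes tested, 99 (1.66%) rose and 222 (3.72%) fell in the ZPR1 strain relative to the deletion strain at an adjusted p under 0.05, which is the meaning of "called" throughout. The changes were mostly small: 6 of the called genes rose and 35 fell by 2-fold or more. In each of the 321 called genes the 3 ZPR1 libraries lay on one side of all 3 deletion libraries; over all genes the groups did not overlap in 731 (12.2%) with the ZPR1 strain higher and in 804 (13.5%) with it lower. The called genes did not rest on replicate 3, since 93 of the 99 and 215 of the 222 were also called without it. The number called moved more with the spread and with single libraries. Leaving out ZPR1 replicate 1, 2 or 3 gave 151, 312 and 180 genes higher and 266, 408 and 340 genes lower. Leaving out deletion replicate 1, 2 or 3 gave 40, 31 and 37 genes higher and 139, 114 and 127 genes lower. Without composition factors in the scaling, 196 genes rose and 181 fell. When the 6 compared libraries were fitted alone, 30 genes of 5948 (0.504%) rose and 123 (2.07%) fell, of which 30 and 120 were among the genes above. The fit without ZPR1 replicate 3 tested 6008 genes, of which 180 were called higher and 340 lower. Counts by list below are to be read beside the totals of the same fit.

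**Figure D1:**
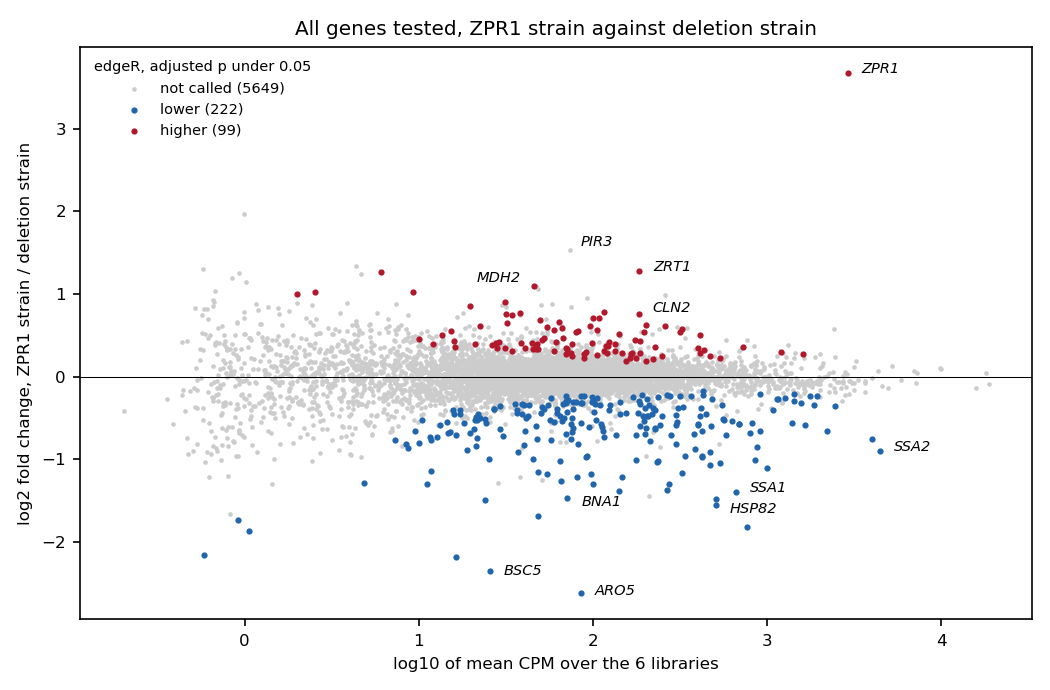
Log2 fold change of the ZPR1 strain over the deletion strain (vertical axis) against the log10 of the mean CPM of the 6 libraries (horizontal axis), 1 point for each of 5970 genes, with the 99 called higher and the 222 called lower in color. ZPR1 lies far above all others; among the other called genes the highest named point is ZRT1 at 1.28 and the lowest is ARO5 at −2.62.

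Chaperone genes under Hsf1 formed one block of falls. Of 24 listed Hsf1 targets, 20 fell and none rose, with a median log2 change of −0.72; the median over all genes was 0.00. Separately by ZPR1 library, the median difference from the deletion mean was −0.81, −0.63 and −0.70 in replicates 1, 2 and 3. Over all 5970 genes tested, 2107, 1929 and 2504 lay below all 3 deletion libraries in these replicates. Of the 24 targets, 24, 23 and 21 did. Without replicate 3, 22 were called, and in the 6 libraries alone 18. In wild type, which is set against the same deletion libraries, the medians were −0.97, −0.86 and −0.95.

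HSP82, the inducible Hsp90, had 188, 350.1 and 234 CPM in the ZPR1 libraries, against 722, 816 and 724 CPM in the deletion libraries and 168, 207 and 182 CPM in wild type. Each ZPR1 library was below every deletion library, replicate 2 the least so, and the log2 change was −1.55 ± 0.18 (edgeR, adjusted p = 0.00069). HSC82, the constitutive Hsp90, had 3090.0, 2882 and 2993 CPM in the ZPR1 strain, against 5037, 5014 and 5011 CPM in the deletion strain, a change of −0.75 ± 0.05. STI1, the co-chaperone that bridges Hsp70 and Hsp90, had 577, 676 and 608 CPM in the ZPR1 libraries, against 1154, 1118 and 1095 CPM in the deletion libraries and 499.8, 529.6 and 502 CPM in wild type, a change of −0.86 ± 0.06 (edgeR, adjusted p = 3.5e-05). AHA1, which stimulates the Hsp90 ATPase, HCH1, its relative, and the Hsp90 cyclophilin CPR6 fell as well.

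SSA1 and SSA2, which encode cytosolic Hsp70, fell, as did several partners of Hsp70. SSA1 had 314, 398 and 381 CPM in the ZPR1 libraries, against 956, 999 and 914 CPM in the deletion libraries (log2 change −1.39 ± 0.09), and SSA2 had 3246, 2928 and 3097 CPM in the ZPR1 strain, against 5934, 5675 and 5699.8 CPM in the deletion strain. These paralogs are similar enough that 42% of 50-base stretches of SSA1 are unique, so part of either level may belong to the other. SIS1, the Hsp40 that works with Hsp70 in the nucleus and cytosol, had 279, 352 and 272 CPM in the ZPR1 libraries, against 639, 638 and 625 CPM in the deletion libraries, a change of −1.07 ± 0.09. The Hsp40 genes YDJ1 and APJ1 and the exchange factor gene FES1 also fell. SSE1, an Hsp110, and SGT2, a factor for tail-anchored proteins, came from a separate list of other cytosolic chaperones, of which 3 of 24 fell, CPR1 being the third; without replicate 3 the list held 4 falls and 1 rise. SGT2 had 562, 558 and 544 CPM in the ZPR1 libraries, against 824, 835 and 819.6 CPM in the deletion libraries, an even fall over the 3 libraries.

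Genes that handle aggregates fell as well. BTN2, which gathers misfolded proteins into deposits, had 37.6, 66.0 and 41.6 CPM in the ZPR1 libraries, against 114, 113 and 112 CPM in the deletion libraries. Its paralog CUR1 had 20.2, 40.8 and 28.8 CPM in the ZPR1 strain, against 63.3, 69.3 and 68.1 CPM in the deletion strain, and in both genes replicate 2 was the highest of the 3 ZPR1 libraries. HSP104, the disaggregase, had 167, 225 and 255 CPM in the ZPR1 libraries, against 371, 412 and 360.5 CPM in the deletion libraries, and the mitochondrial disaggregase gene HSP78 had 58.1, 75.6 and 101 CPM in the ZPR1 strain, against 203, 217 and 196 CPM in the deletion strain. In HSP104 and HSP78 replicate 3 was the highest of the ZPR1 libraries yet still below every deletion library. The 4 targets that were not called were SSA4, HSP42, SSC1 and HSP60. Of these, HSP60, the mitochondrial chaperonin, had 995, 921 and 1255 CPM in the ZPR1 libraries, against 1161, 1166 and 1154 CPM in the deletion libraries, with replicate 3 alone above the deletion strain. Without replicate 3 it fell by a log2 change of −0.28 (edgeR, adjusted p = 0.011), and so did SSC1, the mitochondrial Hsp70, by −0.25 (adjusted p = 0.022). None of 10 genes of the CCT chaperonin, which folds actin and tubulin, was called.

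The upstream regions of 4 of these genes are shown because they carry the core heat shock element, the Hsf1 site, searched as TTCNNGAA (a palindrome, so both strands read alike). Capitals mark the match, each stretch is 60 bases of build R64 read 5′ to 3′ toward the gene, and the positions are chrXVI:98827-98886, minus strand for HSP82, chrI:141539-141598, minus strand for SSA1, chrVII:772094-772153, plus strand for BTN2 and chrXV:380816-380875, plus strand for STI1.
HSP82: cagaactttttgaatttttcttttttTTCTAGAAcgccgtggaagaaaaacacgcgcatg
SSA1: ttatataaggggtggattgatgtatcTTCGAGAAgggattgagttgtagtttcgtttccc
BTN2: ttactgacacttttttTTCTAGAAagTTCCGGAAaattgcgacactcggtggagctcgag
STI1: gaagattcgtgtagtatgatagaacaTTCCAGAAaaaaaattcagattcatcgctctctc
The match shown lies 228 bases before the HSP82 start codon, 134 before that of SSA1 and 204 before that of STI1. Of the matches shown for BTN2, the one nearer to the start codon lies 327 bases before it, with the other 2 bases upstream. The 400-base windows of HSP82, SSA1, BTN2 and STI1 held 2, 4, 3 and 2 matches. In the 400 bases before the start codon, 21 of the 24 Hsf1 targets (87.5%) held this core, against 17.4% of 5710 genes with such a window, 25.2% of the genes called lower and 17.2% of those called higher. The list is one of Hsf1 targets, so its high share is not a result of these data. The genes called lower include the 20 targets that fell.

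Amino acid synthesis was the other large block of falls, and it ran across nearly all pathways. None of the genes of the 6 pathway lists rose. The counts that fell were 6 of 10 for arginine, 6 of 7 for histidine, 8 of 9 for lysine, 8 of 15 for the aromatic amino acids, 7 of 11 for the branched-chain amino acids and 8 of 21 for the other amino acids. Without replicate 3 the counts that fell were 6, 6, 8, 10, 7 and 8, and in the 6 libraries alone they were 5, 5, 5, 8, 6 and 6. Without replicate 3, 1 branched-chain gene and 2 genes of the other amino acids were called higher.

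Arginine genes showed both the deepest falls and the widest spread between ZPR1 libraries, with list medians of −0.48, −1.66 and −1.20 in replicates 1, 2 and 3 and −0.91, −1.19 and −1.20 in the wild-type libraries. ARG4, argininosuccinate lyase, had 297, 159 and 346 CPM in the ZPR1 libraries, against 745, 754 and 746 CPM in the deletion libraries and 306, 256 and 245 CPM in wild type. It was below the deletion strain in all 3 isolates and lowest in replicate 2, with a log2 change of −1.48 ± 0.22 (edgeR, adjusted p = 0.0025). CPA1, the acetyltransferase genes ARG2 and ARG7, and ORT1, which exports ornithine from mitochondria, fell too. ARG1, argininosuccinate synthetase, was not called, with 207, 51.4 and 79.9 CPM in the ZPR1 libraries, against 321, 299 and 297 CPM in the deletion libraries (adjusted p = 0.065). ARG3, ornithine carbamoyltransferase, had 96.1, 19.8 and 23.8 CPM in the ZPR1 strain, against 73.1, 66.6 and 65.0 CPM in the deletion strain. In ARG1, replicate 1 was far above the other ZPR1 libraries, and in ARG3 it was even above the deletion strain, whereas replicates 2 and 3 were low in both genes.

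Histidine genes fell more evenly. HIS5, histidinol phosphate aminotransferase, had 171, 138 and 156 CPM in the ZPR1 libraries, against 321, 318 and 305 CPM in the deletion libraries and 164, 150.5 and 156 CPM in wild type, a log2 change of −1.02 ± 0.07 (edgeR, adjusted p = 3.3e-05). HIS4, a trifunctional enzyme of the route, had 797, 445 and 673 CPM in the ZPR1 libraries, against 1417, 1318 and 1369 CPM in the deletion libraries. The single histidine gene not called was HIS6. In the lysine route LYS1, the last step, had 70.0, 64.5 and 50.9 CPM in the ZPR1 libraries, against 128, 119 and 118 CPM in the deletion libraries, and LYS2, which reduces aminoadipate, had 343, 233 and 277 CPM in the ZPR1 strain, against 582, 539 and 557 CPM in the deletion strain. Replicate 3 was the lowest of the 3 in LYS1 and replicate 2 in LYS2, and both genes were below the deletion strain in every isolate. LYS5, which activates Lys2, was the lysine gene not called.

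In the aromatic route the genes that fell were ARO2, ARO3, ARO4, ARO8, TRP2, TRP3, TRP4 and TRP5. ARO3, which catalyses the first step and is inhibited by phenylalanine, had 385, 269 and 391 CPM in the ZPR1 libraries, against 738, 687 and 729.5 CPM in the deletion libraries, a log2 change of −1.04 ± 0.12. Of the branched-chain genes ILV1, ILV2, ILV3, ILV6, LEU4, LEU9 and BAT1 fell. ILV6, the regulatory subunit of acetolactate synthase, had 477, 363 and 482 CPM in the ZPR1 libraries, against 746, 692 and 709 CPM in the deletion libraries. BAT1 and BAT2 are the mitochondrial and cytosolic aminotransferases of the branched-chain amino acids. BAT1 fell by a log2 change of −0.59 ± 0.09, while BAT2 differed by 0.24 and was not called (adjusted p = 0.067), except without replicate 3, where it was higher by 0.31 (adjusted p = 0.0018). Among the other amino acids, HOM2, HOM3 and HOM6 of the threonine and methionine branch, the asparagine synthetase genes ASN1 and ASN2, the threonine aldolase gene GLY1, SER33 and PRO2 fell. HOM3, aspartate kinase, had 322, 197 and 341 CPM in the ZPR1 libraries, against 558, 558 and 549 CPM in the deletion libraries, with replicate 2 the lowest.

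A list of 12 Gcn4 regulators and co-targets outside the synthesis routes held 7 falls and no rise. PCL5, a cyclin through which Gcn4 is degraded and itself a Gcn4 target, had 57.4, 51.3 and 63.5 CPM in the ZPR1 libraries, against 135, 148 and 143 CPM in the deletion libraries and 69.2, 53.5 and 53.0 CPM in wild type, a log2 change of −1.30 ± 0.11 (edgeR, adjusted p = 7.3e-05). ATG41, an autophagy gene, had 24.9, 13.9 and 30.2 CPM in the ZPR1 strain, against 72.7, 74.9 and 74.6 CPM in the deletion strain. SNZ1 and SNO1 of vitamin B6 synthesis, STR3, UGA3 and ICY1 were the other members that fell. BNA1, which acts in the synthesis of NAD from tryptophan, had 47.8, 30.5 and 35.4 CPM in the ZPR1 libraries, against 108, 103 and 102 CPM in the deletion libraries (log2 change −1.47 ± 0.14), and was the only one of 14 NAD synthesis genes called with all libraries; without replicate 3, BNA3 fell as well.

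Stretches before 3 of the amino acid genes are shown for the Gcn4 site, searched as TGANTCA (also a palindrome), with the match in capitals. They are at chrVIII:141548-141607, minus strand for ARG4, chrIII:68499-68558, minus strand for HIS4 and chrIX:142700-142759, plus strand for HIS5, in build R64.
ARG4: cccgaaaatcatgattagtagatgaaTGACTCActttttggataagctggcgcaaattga
HIS4: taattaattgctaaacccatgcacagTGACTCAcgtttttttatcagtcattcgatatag
HIS5: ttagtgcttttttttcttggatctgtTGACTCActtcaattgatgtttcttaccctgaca
Each of these 3 genes holds 1 match in its 400-base window, at 173, 193 and 196 bases before the start codon, and all 3 matches have C in the open position. The site was in the window of 80.0% of the arginine genes, 72.7% of the branched-chain genes and 57.1% of the histidine genes, against 9.42% of all genes with a window. It was in 33.3% each of the lysine, aromatic and other amino acid lists and of the Gcn4 regulators and co-targets, and in 37.5% of the sulfur and methionine genes. Among the genes called lower 29.9% held it (64 of 214 with a window), and among those called higher 5.05%.

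**Figure D2:**
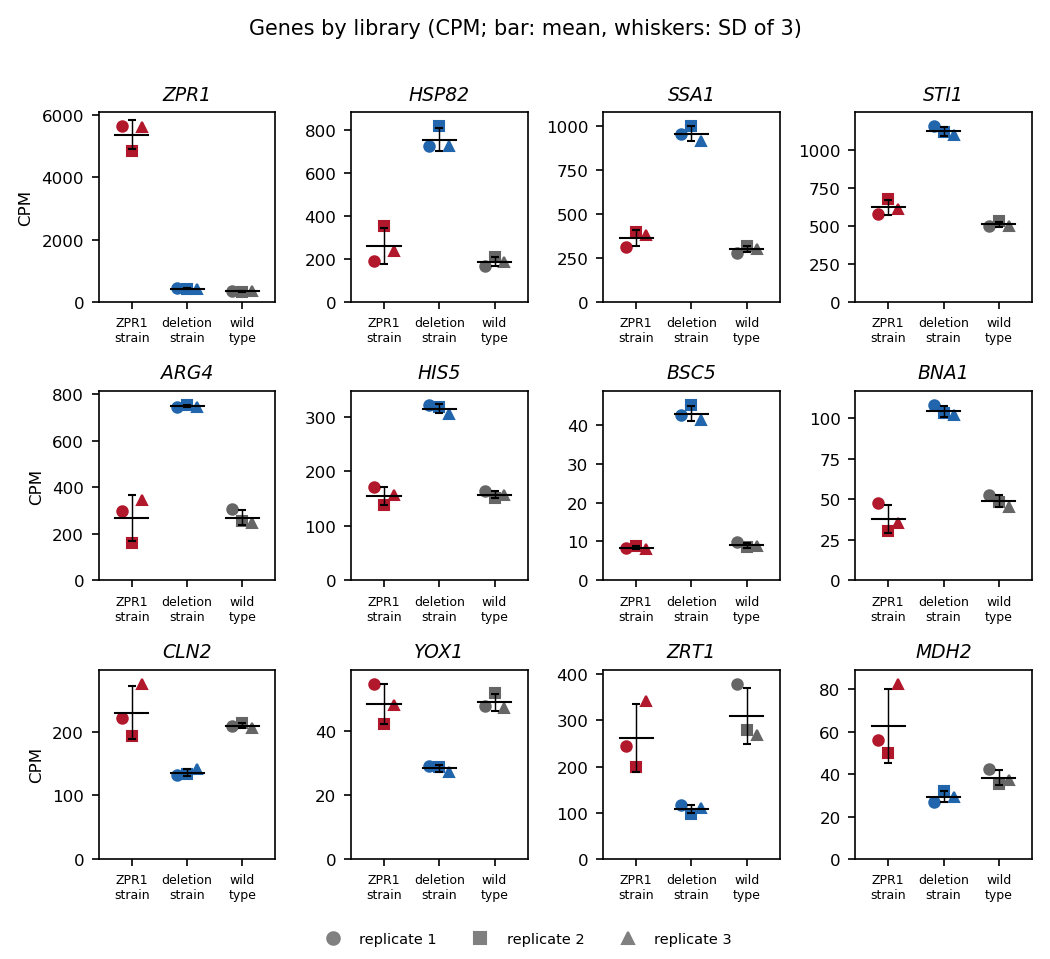
CPM (vertical axes, from 0) of 12 genes in each library; dots are the 3 isolates of the ZPR1 strain, the deletion strain and wild type from left to right, bars are means and whiskers are 1 SD (n = 3). In HSP82, SSA1, STI1, ARG4, HIS5, BSC5 and BNA1 every ZPR1 library lies below every deletion library, and in ZPR1, CLN2, YOX1, ZRT1 and MDH2 every ZPR1 library lies above.

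The sulfur and methionine genes depended on replicate 3. Of 24 listed, 7 fell (STR2, MET1, MET6, MET13, MET22, MUP1 and SUL2) with all libraries, 15 fell without replicate 3, and 3 fell in the 6 libraries alone. Their median differences from the deletion mean were −0.55, −0.40 and −0.12 in replicates 1, 2 and 3, so the third isolate was nearest to the deletion strain. MET17, which fixes sulfide into homocysteine, had 338, 214 and 601 CPM in the ZPR1 libraries, against 651, 688 and 681 CPM in the deletion libraries. Its adjusted p was 0.12 with all libraries and 0.00010 without replicate 3, where the log2 change was −1.29 (edgeR). MET16, which reduces activated sulfate, had 22.9, 14.3 and 45.8 CPM in the ZPR1 strain, against 47.4, 52.1 and 51.1 CPM in the deletion strain. STR2, cystathionine gamma-synthase, fell in each library, with 54.8, 50.5 and 60.8 CPM in the ZPR1 libraries, against 94.2, 95.7 and 90.2 CPM in the deletion libraries.

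Several of the deepest falls were in genes outside these lists. ARO5 (YGL117W) had 30.6, 14.1 and 27.0 CPM in the ZPR1 libraries, against 145, 148 and 145 CPM in the deletion libraries and 22.7, 20.8 and 19.8 CPM in wild type, a log2 change of −2.62 ± 0.21 (edgeR, adjusted p = 6.4e-05) that was the deepest among the named genes. BSC5 (YNR069C), on chromosome XIV, had 8.36, 8.86 and 8.02 CPM in the ZPR1 libraries, against 42.5, 45.2 and 41.2 CPM in the deletion libraries and 9.79, 8.52 and 8.80 CPM in wild type, with a change of −2.35 ± 0.09 and little spread. YNR068C, the next reading frame on the same strand, had 5.20, 6.10 and 6.24 CPM in the ZPR1 strain, against 24.5, 29.1 and 26.3 CPM in the deletion strain. BUL1 and BUL2, the ubiquitin ligase adaptor genes listed with this pair, were not called. GGC1, the mitochondrial carrier of guanine nucleotides, had 164, 102 and 204 CPM in the ZPR1 libraries, against 409.5, 375 and 377 CPM in the deletion libraries. FRE1, a plasma membrane metal reductase, had 150.1, 177 and 131 CPM in the ZPR1 strain, against 369.8, 315 and 250.4 CPM in the deletion strain. Its wild-type levels varied, at 189, 211 and 374 CPM, with replicate 3 above every deletion library. The methionine sulfoxide reductase gene MXR1 and the alcohol dehydrogenase gene ADH5 also fell. Of 19 amino acid permease genes 3 fell: BAP2 and BAP3, which import branched-chain amino acids, and MMP1, which imports S-methylmethionine; in the 6 libraries alone BAP2 was called, and BAP3 (adjusted p = 0.056) and MMP1 (adjusted p = 0.086) were not. Without replicate 3, 5 permease genes fell. Over all genes tested, 3.72% were called lower with all libraries.

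Rises were fewer and smaller, and the clearest group was the set of genes switched on at the passage from G1 to S phase. Of 24 listed, 15 rose and none fell, with a median log2 change of 0.35. The medians were 0.43, 0.35 and 0.31 in ZPR1 replicates 1, 2 and 3, and 0.38, 0.38 and 0.37 in the wild-type libraries set against the same deletion libraries. Without replicate 3, 16 rose; in the 6 libraries alone, 8 did. In RNA from whole cultures, a larger share of cells in a cycle phase and more RNA per cell cannot be told apart.

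Among the G1 cyclins, CLN2 had 222, 194 and 276 CPM in the ZPR1 libraries, against 133, 133 and 142 CPM in the deletion libraries and 209, 214 and 207 CPM in wild type. The log2 change was 0.76 ± 0.11 (edgeR, adjusted p = 0.0016), and replicate 3 was the highest. CLN1 had 100.2, 90.0 and 103 CPM in the ZPR1 strain, against 60.4, 70.1 and 69.2 CPM in the deletion strain, and PCL1, a cyclin of the Pho85 kinase, had 79.3, 74.7 and 80.9 CPM in the ZPR1 strain, against 46.2, 49.9 and 52.9 CPM in the deletion strain. All 3 cyclin genes were higher in every ZPR1 library than in any deletion library. YOX1, a repressor of M/G1 genes, had 54.8, 42.3 and 48.0 CPM in the ZPR1 libraries, against 29.1, 28.6 and 27.1 CPM in the deletion libraries. MCD1, the cohesin ring subunit, had 132, 128 and 119 CPM in the ZPR1 strain, against 83.5, 91.1 and 82.4 CPM in the deletion strain, and RNR1, the large subunit of ribonucleotide reductase, had 519, 489.6 and 434 CPM in the ZPR1 strain, against 329, 340.1 and 348 CPM in the deletion strain. In RNR1 the ZPR1 libraries were all higher, replicate 3 the least so. The other members that rose were SVS1, TOS4, HCM1, NRM1, CLB6 and the replication genes POL1, RFA1, CDC21 and CDC6. CLB5, SWI4, CDC45, POL2, POL12, RFA2, RFA3, SMC3 and PCL2 were not called. None of 18 listed G2/M and M/G1 genes was called with all libraries, and PCL9 rose without replicate 3.

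Of 10 histone genes, 4 rose, where 1.66% of all genes tested did: HTB1, HTB2, HHF2 and HHO1, the linker histone. HTB2 had 509.7, 511 and 515 CPM in the ZPR1 libraries, against 423, 425 and 446 CPM in the deletion libraries and 467, 443 and 431 CPM in wild type. HHF2 had 809, 754 and 877 CPM in the ZPR1 libraries, against 637, 627 and 643 CPM in the deletion libraries; it encodes the same protein as HHF1, and 79% of its 50-base stretches are unique. The 6 libraries alone called 1 histone gene. Mature histone messages of yeast carry poly(A) tails, so a poly(A) library captures them. Of 11 genes for DNA damage signalling and nucleotide supply, DUN1, a checkpoint kinase, and RNR2, the small subunit of ribonucleotide reductase, rose. Neither was called in the 6 libraries alone (edgeR, adjusted p = 0.067 for DUN1 and 0.072 for RNR2), and without replicate 3 the list held 4 rises.

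Stretches before POL1, MCD1 and RNR1 are shown for the MluI cell cycle box, ACGCGT, the site of the MBF factor of G1/S genes. They are at chrXIV:429887-429946, plus strand for POL1, chrIV:444364-444423, plus strand for MCD1 and chrV:298617-298676, plus strand for RNR1.
POL1: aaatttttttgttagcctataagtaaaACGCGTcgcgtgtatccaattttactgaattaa
MCD1: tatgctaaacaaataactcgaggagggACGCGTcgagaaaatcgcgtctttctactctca
RNR1: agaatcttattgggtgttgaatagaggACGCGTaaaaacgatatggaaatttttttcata
The matches shown lie 168, 287 and 301 bases before the start codons, and each of these genes holds 2 matches in its 400-base window. The box was in the window of 54.2% of the G1/S genes and of 28.3% of the genes called higher (28 of 99), against 4.64% of all genes with a window and 1.87% of the genes called lower. The SBF site, searched on both strands as CNCGAAA, was in 34.3% of the windows of genes called higher, against 19.1% of all windows and 20.6% of those of genes called lower. Motifs were searched one by one, so matches to different motifs may share bases. For each motif, the shares among called genes include the called members of the lists.

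ZRT1, the high-affinity zinc importer, had the largest rise among the called genes after ZPR1. It had 244, 199 and 342 CPM in the ZPR1 libraries, against 116, 97.7 and 109 CPM in the deletion libraries and 379.9, 279.8 and 268 CPM in wild type. All ZPR1 libraries were higher than all deletion libraries and replicate 3 was the highest, with a log2 change of 1.28 ± 0.19 (edgeR, adjusted p = 0.0024). The low-affinity importer gene ZRT2 had 194, 175 and 182 CPM in the ZPR1 strain, against 156, 149.9 and 146 CPM in the deletion strain. IZH4, a membrane protein gene of zinc homeostasis, had 26.9, 17.5 and 32.1 CPM in the ZPR1 libraries, against 15.3, 12.4 and 14.5 CPM in the deletion libraries. These were the 3 of 21 zinc genes that rose, where 1.66% of all genes tested did. ZRT1 was the one also called in the 6 libraries alone. Without replicate 3 the list held 4 rises and 1 fall. ZAP1, the zinc-responsive activator of such genes, was not called (log2 difference 0.27 ± 0.10, adjusted p = 0.17). The zinc-responsive element of Zap1, in capitals, stands 194 bases before the ZRT1 start codon at chrVII:20750-20809, plus strand.
ZRT1: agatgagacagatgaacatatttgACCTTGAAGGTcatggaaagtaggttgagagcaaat
In all, 7 of the 5710 windows held this element (0.123%), among them 3 of the 21 zinc genes. It was in 1 of the 99 windows of genes called higher (1.01%), that of ZRT1, and in 0 of 214 of those called lower. The windows of ZRT2 and IZH4 did not hold it.

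Other rises were scattered over metabolism and the cell surface, where 1.66% of all genes tested were called higher. MDH2, the cytosolic malate dehydrogenase of gluconeogenesis, had 56.0, 49.8 and 82.7 CPM in the ZPR1 libraries, against 26.8, 31.9 and 29.1 CPM in the deletion libraries and 42.3, 35.5 and 37.1 CPM in wild type (log2 change 1.10 ± 0.17). CIT2, the peroxisomal citrate synthase, had 71.1, 55.6 and 56.3 CPM in the ZPR1 libraries, against 40.8, 32.4 and 40.7 CPM in the deletion libraries. FDH1, formate dehydrogenase, was also called higher, but at 2.49, 2.38 and 3.18 CPM in the ZPR1 strain, against 1.56, 0.985 and 1.47 CPM in the deletion strain, with 16% of its 50-base stretches unique, and it was not called without replicate 3 (adjusted p = 0.075). These were the 3 of 17 genes of gluconeogenesis and the glyoxylate cycle that rose. URA1, dihydroorotate dehydrogenase, had 360.2, 306 and 464 CPM in the ZPR1 libraries, against 257, 258 and 259.6 CPM in the deletion libraries; its log2 change was 0.54 with all libraries and 0.37 without replicate 3. MIG2, a glucose repressor, and HXK2, the main hexokinase in glucose, rose as well. Of 16 phospholipid genes 3 rose, PSD1, HNM1 and INO1, the last with 8.59, 14.2 and 14.6 CPM in the ZPR1 strain, against 4.91, 5.63 and 7.83 CPM in the deletion strain. Of 17 targets of the unfolded protein response of the endoplasmic reticulum 3 rose, JEM1, MPD1 and EUG1. None of the phospholipid or unfolded protein response genes was called in the 6 libraries alone, and URA1 and HXK2 were not called there either. Without replicate 3 the phospholipid list held 4 rises and the unfolded protein response list 3 rises and 1 fall.

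At the cell surface SCW10, a wall glucanase, had 373, 369 and 429 CPM in the ZPR1 libraries, against 253, 267 and 266 CPM in the deletion libraries, and PRY2, a secreted sterol-binding protein, had 91.0, 91.0 and 101 CPM in the ZPR1 strain, against 62.5, 69.5 and 62.7 CPM in the deletion strain. Both were even over the 3 isolates. TIR3, a wall mannoprotein, was the only one of the 27 listed cell wall genes to fall with all libraries; without replicate 3 the list held 3 rises and 2 falls. Of 24 mating genes, FAR1, which arrests the cycle in response to pheromone, and AGA1, an agglutinin anchor, rose. FAR1 had 205, 208 and 193 CPM in the ZPR1 libraries, against 152, 146 and 147 CPM in the deletion libraries. AGA1 had 40.4, 56.7 and 25.3 CPM in the ZPR1 strain, against 20.7, 19.8 and 24.9 CPM in the deletion strain, so that replicate 3 was at the level of the deletion strain; it was not called in the 6 libraries alone (adjusted p = 0.14). Without replicate 3 the mating list held 6 rises, and its median was 0.15, 0.16 and −0.15 in replicates 1, 2 and 3.

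**Figure D3:**
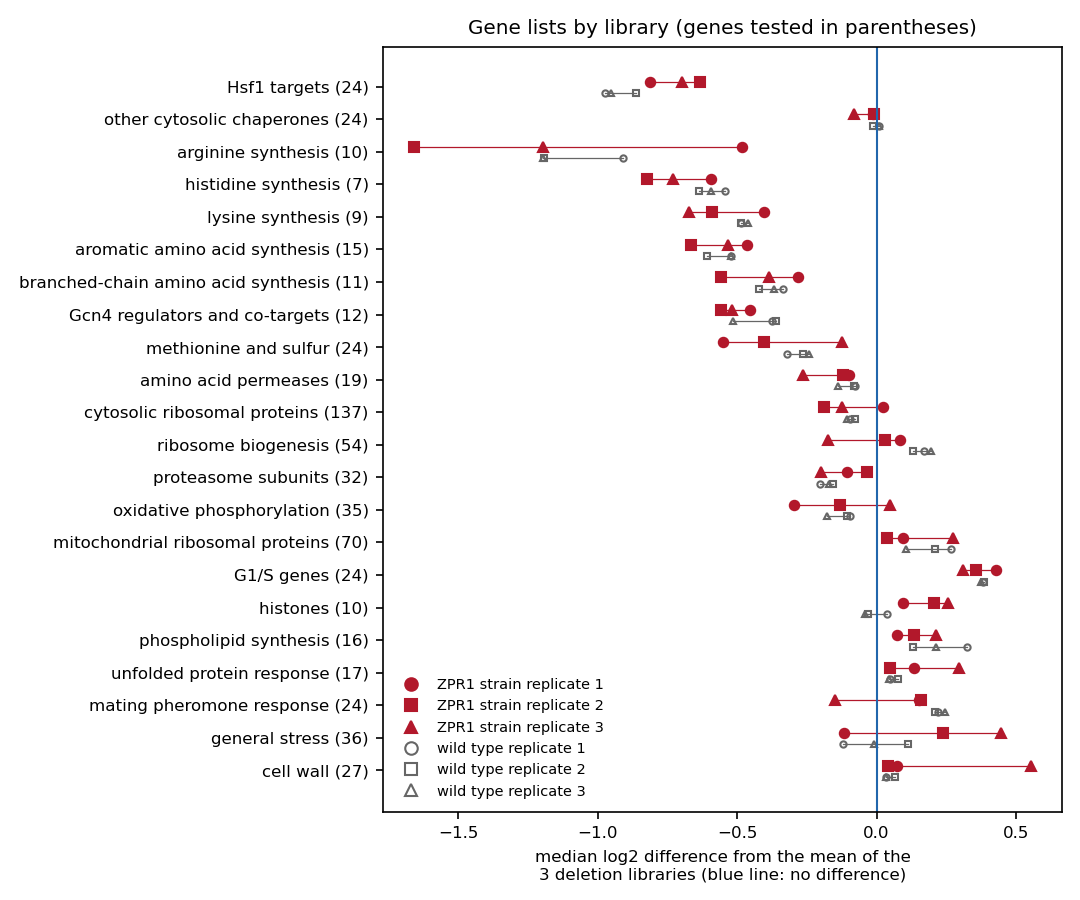
Median log2 difference from the mean of the deletion libraries (horizontal axis) for 22 gene lists (rows), 1 point for each ZPR1 library and each wild-type library. The Hsf1 targets and the amino acid lists lie left of 0 and the G1/S genes right of 0 in every ZPR1 library, whereas in the cell wall list replicate 3 lies at 0.55 and the other ZPR1 libraries at 0.07 and 0.04.

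Lists for protein synthesis and breakdown held a few calls, where 1.66% of all genes tested were called higher and 3.72% lower. None of 27 translation initiation genes and none of 12 elongation genes was called. Of 137 genes for cytosolic ribosomal proteins 9 fell, none of them in the 6 libraries alone and 11 without replicate 3, and the median differences were 0.02, −0.19 and −0.13 in replicates 1, 2 and 3. The log2 change was small but negative in 128 of the 137, with a median of −0.09, against 2939 negative of all 5970 genes tested. For the proteasome 2 of 32 subunit genes fell, PUP3 and RPN8. None was called in the 6 libraries alone, and 3 fell without replicate 3. The log2 change was negative in 31 of the 32 subunit genes, with a median of −0.11. RPN4, the activator of proteasome genes, had 123, 145 and 128 CPM in the ZPR1 libraries, against 188, 182 and 167 CPM in the deletion libraries and 87.8, 107 and 123 CPM in wild type, and fell by a log2 change of −0.44 ± 0.11 (edgeR, adjusted p = 0.044). In the ubiquitin pathway 4 of 25 genes fell, RPN4, the conjugating enzyme genes UBC4 and UBC5, and NPL4; RPN4 alone was called in the 6 libraries alone, and 5 fell without replicate 3. With all libraries, lists for RNA polymerases I and III, sterol synthesis and autophagy held no call, nor did the general stress list of 36 genes, whose medians were −0.12, 0.24 and 0.45 in replicates 1, 2 and 3. Without replicate 3, RRN3 and RPC34 of the polymerase list and the sterol gene ERG6 rose and CPS1 of the autophagy and vacuole list fell. In the general stress list, TSL1 rose and SSE2, HOR7 and UBI4 fell without replicate 3. Oxidative phosphorylation, with 35 genes, held no call with all libraries and 13 falls without replicate 3, where 340 of 6008 genes tested fell.

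Most other metabolic lists held a single call or a pair, where 1.66% of all genes tested were called higher and 3.72% lower. Of 18 genes of the phosphate regulon, PHO89, a sodium phosphate cotransporter, and PHO8, the vacuolar alkaline phosphatase, fell, and PHO3, an acid phosphatase, rose. PHO89 had 122, 97.2 and 46.4 CPM in the ZPR1 libraries, against 225, 179 and 211 CPM in the deletion libraries, with replicate 3 the lowest. None of these 3 was called in the 6 libraries alone (edgeR, adjusted p = 0.081 for PHO89, 0.052 for PHO8 and 0.094 for PHO3). Of 6 tested mitochondrially encoded genes, 21S_RRNA among them, COX1, a subunit of cytochrome oxidase, and OLI1, a subunit of ATP synthase, fell; neither was called in the 6 libraries alone (adjusted p = 0.076 for COX1 and 0.074 for OLI1). COX1 had 12.5, 10.9 and 13.6 CPM in the ZPR1 libraries, against 15.7, 24.0 and 20.8 CPM in the deletion libraries, and every ZPR1 library was below every deletion library; mitochondrial messages of yeast lack poly(A) tails. In further lists the falls were GSH1 beside MXR1 among 20 oxidative defence genes, BAS1 among 19 purine genes, KRS1 among 19 tRNA synthetase genes, PDX3 among 18 thiamine and vitamin B6 genes, NOG2 among 54 ribosome biogenesis genes, FRE1 among 16 iron and copper genes and ENA1 among 13 osmotic response genes. ENA1 has near-identical neighbours, and 11% of its 50-base stretches are unique. The single rise among 70 mitochondrial ribosomal protein genes was MRPL28. Of the genes in these further lists MXR1, PDX3, FRE1 and ENA1 were also called in the 6 libraries alone, and GSH1, BAS1, KRS1, NOG2 and MRPL28 were not. Without replicate 3 the purine list held 5 rises (ADE1, ADE2, ADE4, ADE13 and ADE17) and 2 falls, and the iron and copper list 2 rises and 2 falls.

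Markers of other cell states and of RNA capture were checked. Of 7 genes of alpha cells or of cell type control, RME1 was called (though not in the 6 libraries alone, edgeR adjusted p = 0.054), with 55.5, 62.5 and 61.2 CPM in the ZPR1 libraries, against 75.6, 75.0 and 75.7 CPM in the deletion libraries. STE3, the receptor of alpha cells, stood at 3.05, 2.29 and 1.51 CPM in the ZPR1 libraries, against 2.35, 2.32 and 1.68 CPM in the deletion libraries. The list summed to 239.5, 249 and 195 CPM in the ZPR1 libraries, against 232, 255 and 256 CPM in the deletion libraries. None of 16 meiosis and sporulation genes tested was called with all libraries, and SPO24 fell without replicate 3. Their summed level was 277, 213 and 339 CPM in the ZPR1 libraries, against 391, 411 and 411 CPM in the deletion libraries. SPO24 made up much of this sum, with 176, 99.2 and 243 CPM in the ZPR1 libraries, against 297, 312 and 321 CPM in the deletion libraries. The log2 change was positive in 11 of the 16 genes and negative in 5, with a median of 0.15. Nuclear non-coding RNAs, which mostly lack poly(A) tails, summed to 550.1, 692 and 461 CPM in the ZPR1 libraries, against 677, 750.1 and 684 CPM in the deletion libraries. Of 75 tested, 3 fell (SNR17A, SNR19 and LSR1), where 3.72% of all genes tested were called lower. The median log2 change of the 75 was −0.38, against 0.005 for the protein-coding genes. The 3 tested ribosomal RNA features summed to 43.2, 53.7 and 96.3 CPM in the ZPR1 libraries, against 60.1, 72.2 and 62.8 CPM in the deletion libraries, highest in ZPR1 replicate 3. The part of these differences in the gene results was not tested.

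Replicate 3 of the ZPR1 strain followed the other isolates in the Hsf1, amino acid and G1/S genes but not in a further set. Of the 51 genes that it held at 2-fold or more above the other ZPR1 libraries, 7 were on the general stress list, 3 on the cell wall list and 3 on the sulfur list, and 27 were on none of the lists. The cell wall list had the largest median difference of replicate 3 from the other ZPR1 libraries, 0.57 on the log2 scale: replicate 3 was the highest of the 3 ZPR1 libraries in 22 of 27 genes, and the summed level of the list was 12204, 12110.0 and 20910.0 CPM in replicates 1, 2 and 3, against 12345, 12117 and 12316 CPM in the deletion libraries. PIR3, a covalently linked wall protein, had 35.2, 39.0 and 255 CPM in the ZPR1 libraries, against 40.0, 37.9 and 35.8 CPM in the deletion libraries. CWP1, a wall mannoprotein, had 139, 201 and 698 CPM in the ZPR1 strain, against 161, 189.9 and 174 CPM in the deletion strain, and SED1, an abundant wall protein of stressed cells, had 1551, 1771 and 5346 CPM in the ZPR1 strain, against 1953, 1952 and 1922 CPM in the deletion strain. In these 3 genes replicate 3 alone was far above the deletion libraries. SLT2, the kinase of the cell wall integrity pathway and a target of its own pathway, had 163, 187 and 295 CPM in the ZPR1 libraries, against 188, 199 and 205 CPM in the deletion libraries. KDX1, a pseudokinase gene of the same pathway, had 56.6, 67.0 and 206 CPM in the ZPR1 strain, against 91.1, 97.6 and 87.5 CPM in the deletion strain, and without replicate 3 it was lower in the ZPR1 strain (log2 change −0.57, edgeR adjusted p = 0.00056).

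Carbon, stress and transport genes were high in the same isolate. HXK1, a hexokinase repressed by glucose, had 23.6, 38.1 and 133 CPM in the ZPR1 libraries, against 28.9, 36.6 and 27.9 CPM in the deletion libraries. HSP12, a membrane-associated stress protein, had 25.8, 57.9 and 116 CPM in the ZPR1 strain, against 41.2, 43.9 and 38.4 CPM in the deletion strain, and ENO1, an enolase, had 1014, 673 and 2072 CPM in the ZPR1 strain, against 1251, 1053 and 1145 CPM in the deletion strain. In all 3 genes replicate 3 was above every deletion library. ENO1 shares sequence with its paralog ENO2, and 76% of its 50-base stretches are unique. The polyamine exporter gene TPO2 had 31.8, 30.6 and 130.0 CPM in the ZPR1 libraries, against 31.6, 28.3 and 29.7 CPM in the deletion libraries, and the general amino acid permease gene GAP1 had 331, 269.6 and 696 CPM in the ZPR1 strain, against 373, 334 and 322 CPM in the deletion strain. CRG1, a methyltransferase gene, had 34.4, 40.1 and 152 CPM in the ZPR1 strain, against 40.2, 44.2 and 38.7 CPM in the deletion strain. YNR066C had 17.0, 14.9 and 85.0 CPM in the ZPR1 strain, against 20.3, 20.3 and 23.1 CPM in the deletion strain, and without replicate 3 the sign of its difference turned to −0.42 (edgeR, adjusted p = 0.032). On the general stress list replicate 3 was the highest of the 3 ZPR1 libraries in 28 of 36 genes. With all libraries PIR3, CWP1, SED1, SLT2, KDX1, HXK1, HSP12, ENO1, TPO2, GAP1, CRG1 and YNR066C were not called.

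Other lists were low in the same isolate. It was the lowest of the 3 ZPR1 libraries in 50 of 54 ribosome biogenesis genes, with list medians of 0.08, 0.03 and −0.17 in replicates 1, 2 and 3, in 28 of 32 proteasome genes, in 22 of 24 sterol genes and in 21 of 24 mating genes; over all 5970 genes it was the lowest in 2404 and the highest in 2159. ADE17, of purine synthesis, had 495, 448 and 234 CPM in the ZPR1 libraries, against 290.1, 285 and 273 CPM in the deletion libraries. CHA1, the serine and threonine deaminase, had 290.2, 339.5 and 143 CPM in the ZPR1 strain, against 187, 175 and 178 CPM in the deletion strain. For ADE17 and CHA1, replicates 1 and 2 were above the deletion strain and replicate 3 was below it. BSC1, a flocculin-like reading frame, had 27.6, 19.2 and 2.80 CPM in the ZPR1 libraries, against 46.3, 32.6 and 41.7 CPM in the deletion libraries, and PRM7, a pheromone-regulated gene, had 45.3, 35.2 and 10.4 CPM in the ZPR1 strain, against 80.2, 64.7 and 71.8 CPM in the deletion strain.

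**Figure D4:**
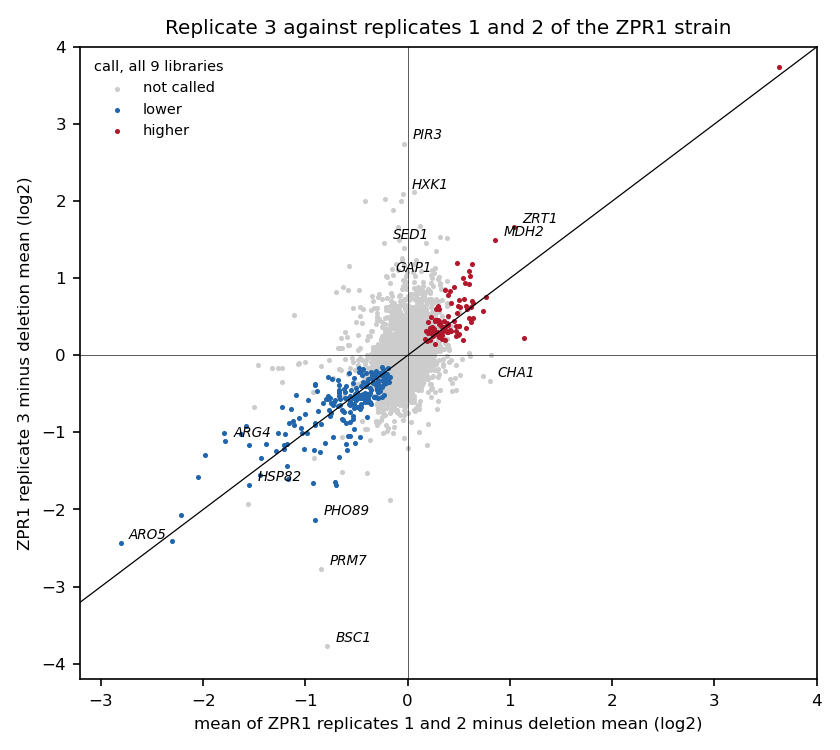
Log2 difference from the mean of the deletion libraries in ZPR1 replicate 3 (vertical axis) against the mean of ZPR1 replicates 1 and 2 (horizontal axis), 1 point for each of the 5053 genes that averaged 10 CPM or more. Colored points are called genes and the diagonal marks equal values. HSP82, ARG4 and ARO5 lie at negative values on both axes, and PIR3, HXK1 and SED1, none of them called, lie near 0 on the horizontal axis and high on the vertical one.

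Replicates 1 and 2 also had genes of their own. Replicate 1 held the arginine genes ARG1, ARG3 and ARG56 at a higher level than the other isolates and HSP12 and HXK1 at a lower one. Replicate 2 was low in SIR2, the silencing deacetylase, with 41.6, 18.1 and 45.0 CPM in the ZPR1 libraries, against 42.0, 38.8 and 41.9 CPM in the deletion libraries, and in HMO1, a high-mobility group protein of ribosomal genes, with 306, 129 and 255 CPM in the ZPR1 strain, against 239, 253 and 244 CPM in the deletion strain. It was above the other ZPR1 isolates in ROX1, the repressor of hypoxic genes, with 31.0, 70.0 and 32.0 CPM in the ZPR1 strain, against 49.3, 62.7 and 55.6 CPM in the deletion strain. None of these genes was called between the strains.

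**Figure D5:**
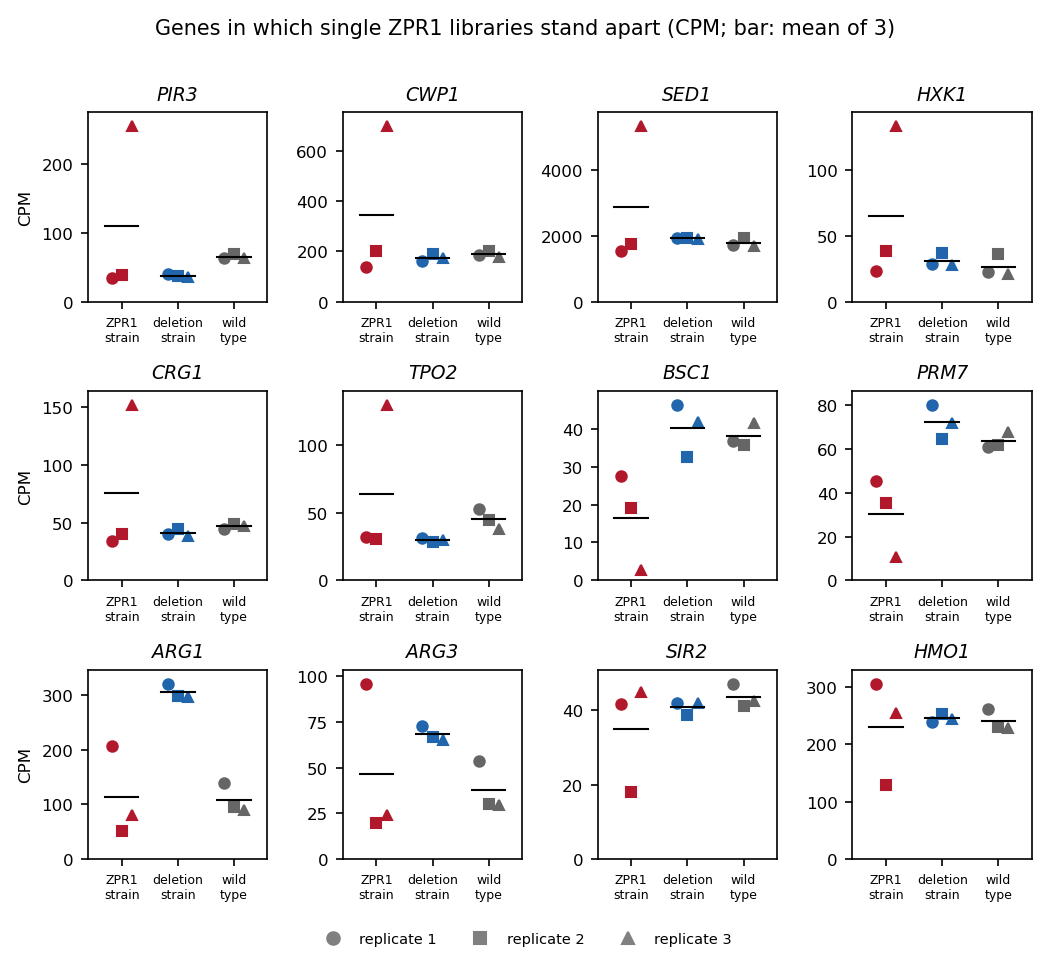
CPM (vertical axes, from 0) of 12 genes in which 1 ZPR1 library stands apart; dots are isolates of the ZPR1 strain, the deletion strain and wild type from left to right, and bars are means. Replicate 3 is high in PIR3, CWP1, SED1, HXK1, CRG1 and TPO2 and low in BSC1 and PRM7, replicate 1 is high in ARG1 and ARG3, and replicate 2 is low in SIR2 and HMO1.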

How the data were processed

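Per the submitters' processing notes, the tools named are DESeq2 1.34.0, STAR 2.7.0 and FastQC 0.11.5, with R64 as the genome build. How reads were counted, with which strand setting and with what rule for multiply mapped reads, is not given here. The deposited values are the authors' raw counts of reads per feature for 9 libraries and 7127 features, of which 393 were 0 in all libraries. Features were matched to the R64 annotation by locus tag (6047) or symbol (122), and 958 were not matched. Libraries were grouped by their labels, and no pair of replicates agreed within sampling noise. The test was edgeR's quasi-likelihood test (edgeR 4.0.16 in R 4.3.3) with TMM factors, edgeR's low-count filter, all 9 libraries and strain as the only term, with Benjamini-Hochberg adjustment over 5970 genes. A run on simulated data checked that 2-fold changes were recovered. It used a constant spread per strain and no deviating library, so it does not show how the test handles a library such as ZPR1 replicate 3. Differences of single libraries are log2 values with a prior count of 2. Alternatives used DESeq2 1.42.0 and limma 3.58.1. Labels share replicate numbers across strains. Deviations of same-numbered ZPR1 and deletion libraries correlated at 0.022, 0.059 and −0.072, and those of differently numbered ones at −0.116 to 0.096. With so few libraries these values cannot show whether same-numbered cultures were handled together. The main fit did not pair the libraries. Groups of 3 allow no exact permutation p below 0.1. Motifs were searched in the 400 bases before each start codon, and the stretches shown were read from the R64 genome sequence of RefSeq. Genes named are ZPR1, AIM29 and related genes, up to 15 per side by size of change, members of the lists, and up to 8 per side by the deviation of ZPR1 replicate 3. KDX1, SIR2, HMO1 and ROX1 fall outside these rules. They are named as examples of genes in which a single ZPR1 library lay 2-fold or more from the mean of the others. The comparison, the lists and the genes named were chosen with earlier results of these data known. Results of a few genes are not reported here.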

Additional observations from a re-analysis of the deposited data

How the results depend on the processing

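With all 9 libraries 99 genes higher and 222 genes lower were called, and the counts kept more falls than rises under every alternative run except the fit with no composition factors, which called 196 higher and 181 lower, so that 52.0% of calls were higher against 30.8%. DESeq2 called 194 higher and 307 lower, and limma-voom with library quality weights 233 and 388. The 6 compared libraries alone gave 30 and 123, an adjusted p under 0.01 gave 30 and 113, and a change of at least 2-fold gave 6 and 35. Leaving out 1 library at a time gave from 31 to 312 higher and from 114 to 408 lower: the count grew without any 1 of the ZPR1 libraries (151 and 266 without replicate 1, 312 and 408 without replicate 2, 180 and 340 without replicate 3) and shrank without any 1 of the deletion libraries (40 and 139, 31 and 114, 37 and 127). With a replicate block 75 rose and 206 fell. With the fit to the 6 libraries alone, 44 of the 159 named genes lost their call. No named gene that was called changed direction under any alternative run. Some genes named for the deviation of replicate 3 and not called did: YNR066C had a log2 difference of 0.87 with all libraries and −0.42 without ZPR1 replicate 3. Limits are the 3 isolates per strain, a spread in the ZPR1 strain that exceeds that of the other strains and is pooled with theirs, and low genes: below about 1 CPM a library holds few reads.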
